A study of Homo sapiens with 8 samples.

Results

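The genes for potassium, calcium and sodium channels were followed in cells labelled HepG2, a line derived from a human liver carcinoma, with and without sodium benzoate (SB). The channel genes were taken by symbol: all rows beginning with KCN, a family letter and a number, all CACNA, CACNB and CACNG rows, and all SCN rows ending in a number with A or B, without antisense and overlapping transcripts. They are 73 of the 14526 genes in the table, and GENCODE release 44 lists 135 protein-coding symbols of this form. RNA-seq was done on 4 control cultures (control) and 4 cultures given SB at 10 mM for 24 h (SB-treated), all grown in DMEM with serum and called biological replicates in the series. What the control cultures received in place of SB is not given in the sources used here, and the labels name no batch. The values are RPKM, reads divided by the length of the gene and the size of the library, so that levels can be compared between genes. Whole reads could be recovered from them, between 36990075 and 44492795 per control library and between 37161781 and 44878414 per SB-treated library.

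The label was checked against liver markers. Of 20 hepatocyte markers, 17 had no row in the table used here, among them ALB and AFP, which encode albumin and alpha-fetoprotein. TF, for the abundant liver protein transferrin, was at 0.192 ± 0.0188 RPKM (SD, n = 4) in control. The hepatocyte markers therefore go against the label, and the cells are called by their label only. Of 17 neuron markers 10 had a row, and their summed level lay between 98.1 and 109 RPKM in control and between 71.8 and 73.8 RPKM in SB-treated cells. Of 10 muscle markers 4 had a row, with sums of 14.5 to 16.3 RPKM in control and 11.9 to 12.7 RPKM in SB-treated cells. Control replicate 1 stood apart: the chi-square of its reads against the other controls was between 33.4 and 38.4 per degree of freedom, against 1.52 to 3.80 for all other pairs within a group. Results that turn on it are given with and without it. In such bulk samples, fewer cells of a type and less RNA per cell cannot be told apart.

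Voltage-gated channels open when the membrane potential changes and let potassium out or sodium and calcium in. A pore subunit forms the path of the ion, and auxiliary subunits set where the pore goes and how fast it opens and closes. Potassium leak channels and inward rectifiers hold the resting potential, and another group of potassium channels opens when calcium or sodium rises inside the cell. Nerve and muscle use these genes most, while liver cells do not fire action potentials.

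Most channel genes were higher in SB-treated cells. Of the 73, 44 rose (60.3%) and 7 fell (9.59%), and 22 did not pass the test, which was limma on log2(RPKM + 1) with an adjusted p-value below 0.05. Over all genes of the table, 33.0% were called higher and 32.6% were called lower. The median ratio of mean RPKM, SB-treated over control, was 1.35 over the channel genes and 1.0 over all genes. For 40 channel genes each SB-treated value lay above each control value (background 31.0%), and for 6 each lay below (background 30.5%). A ratio of at least 2 was reached by 10 channel genes, 13.7% of them, against 2.55% of all genes. A ratio of at least 1.5 was reached by 29, or 39.7%, against 9.28%. The authors kept genes over 1 CPM (reads scaled to library size) in at least 2 samples, so a gene that is over it in 1 group alone had to differ to have a row. By the recovered reads, CACNG6, CACNG7, KCNA2, KCNA6 and KCNK9 among the 44 that rose were over it in 2 or more SB-treated libraries and in fewer than 2 control libraries, and KCNF1 among the 7 that fell was over it in control libraries alone. All 5 of the former are among the 29, and 3 are among the 10, so these shares describe the genes that have a row. In the other direction, KCNF1 was the channel gene with a ratio of 1/1.5 or less, against 5.38% of all genes. Of the 51 calls, 44 held under each of 14 alternatives. Voom on the recovered reads also gave 44 higher and 7 lower. Without control replicate 1, 46 rose and 9 fell, while the calls over all genes went to 37.6% higher and 37.9% lower. Without the library scaling factors, which moved the median log2 ratio of all genes from 0.00 to 0.11, 50 rose and 5 fell, while the share of all genes called higher went to 43.0% and the share called lower to 23.1%.

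**Figure D1:**
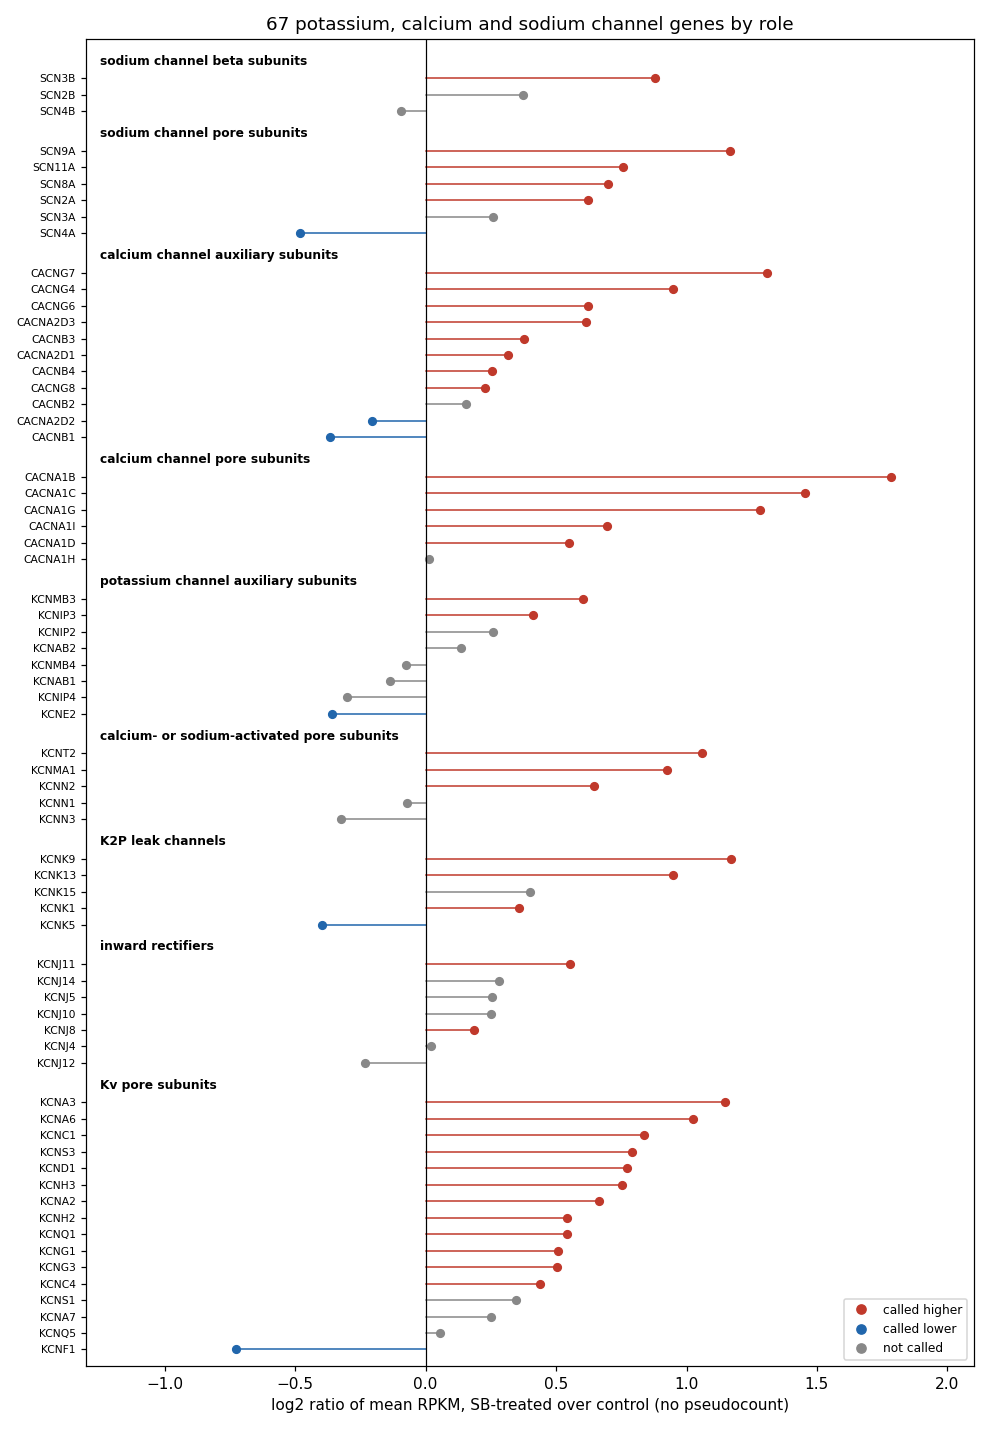
The log2 ratio of mean RPKM, SB-treated over control (4 replicates each), is drawn for 67 of the channel genes by role, with red points for genes that rose, blue for genes that fell and gray for the others. Most points lie right of 0 in every group but the potassium channel auxiliary subunits, the highest is CACNA1B and the lowest is KCNF1.

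The level of a gene went with its direction in the whole table, so the channel genes were also read by level. They were weakly expressed, with a median of 0.925 RPKM (range 0.110 to 11.6) against 8.51 RPKM over all genes, and with a median of 171 reads in the control libraries against 1180. In the lowest quartile of levels, up to 2.45 RPKM, lay 53 of them, of which 33 rose and 3 fell. The background there was 42.8% higher and 15.1% lower. The 33 include CACNG6, CACNG7, KCNA2, KCNA6 and KCNK9, which had a row through SB-treated libraries. The 3 include KCNF1, which had a row through control libraries, so these counts describe the genes that have a row. In the second quartile, up to 8.51 RPKM, 9 of 18 rose and 4 fell, against 43.4% and 22.8% of the genes at that level. The third quartile held KCNG1 and KCNJ8, which both rose, and no channel gene was in the highest quartile, where the background was 13.2% higher and 60.5% lower. At a mean below 1 RPKM 25 of 39 channel genes rose and 2 fell, and at 1 RPKM or more 19 of 34 rose and 5 fell. The 25 and the 2 include the same genes with a row through 1 group alone. The shares of all genes on either side of 1 RPKM were not computed, so these counts have no background. Channel genes also spanned more of the genome, with a median of 68.0 kb against 34.0 kb for the 13290 genes with a known span. The part of level and gene span in the counts was not tested.

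**Figure D2:**
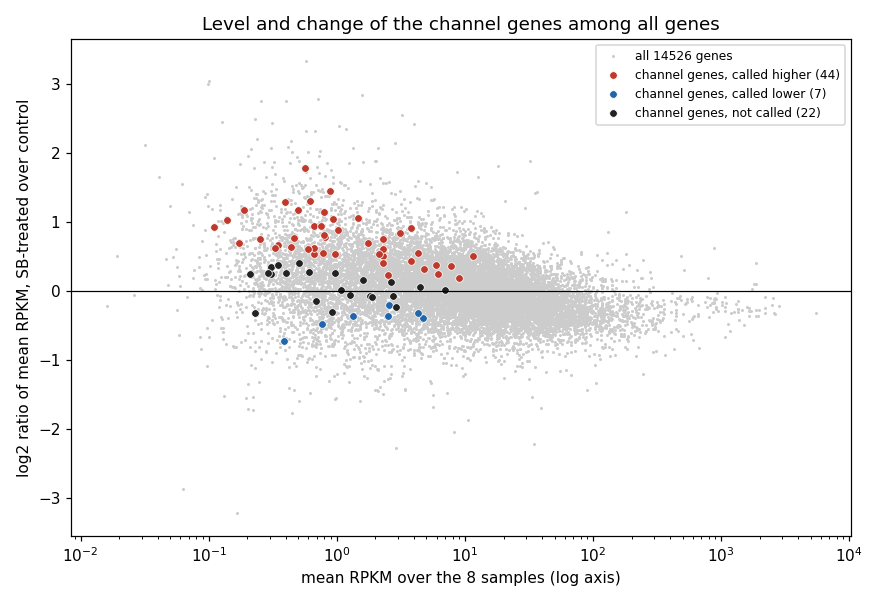
Each point is a gene, placed by its mean RPKM over the 8 samples (log axis) and its log2 ratio of mean RPKM, SB-treated over control, with the 73 channel genes colored by call over all 14526 genes in gray. The channel genes lie between 0.110 and 11.6 RPKM, left of the levels at which most genes were lower.

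The largest ratios were in the calcium channel pore subunits. Of the 6 with a row, out of 10 in GENCODE, 5 rose and none fell, against 33.0% higher and 32.6% lower over all genes. The remaining gene, CACNA1H, was by far the most abundant of the 6. CACNA1B (chr9:137877782-138124624, plus strand) encodes the pore of the N-type channel that triggers transmitter release at nerve endings. It was at 0.250, 0.234, 0.254 and 0.272 RPKM in control and at 0.792, 0.845, 0.915 and 0.927 RPKM in SB-treated cells. All SB-treated values were over control, and the ratio of the means, 3.44, was the highest of the 73 genes. The log2 fold change on the log2(RPKM + 1) scale was 0.58 (SE, the standard error, 0.0354, limma adjusted p = 1.25e-06), which understates the change of a gene this low, and voom on the recovered reads (98.0 on average in control and 357 in SB-treated cells) gave 1.78.

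CACNA1C (chr12:1970772-2697950, plus strand), the L-type pore of heart and smooth muscle, was next. It was at 0.408, 0.466, 0.490 and 0.515 RPKM in control and at 1.28, 1.31, 1.29 and 1.27 RPKM in SB-treated cells, a ratio of 2.74 (log2 fold change 0.64, SE 0.0340, limma adjusted p = 6.65e-07). The SB-treated values lay closer together than the control values, with SDs of 0.0161 and 0.0457 RPKM. Exons of CACNA1C overlap the antisense genes CACNA1C-AS1 and CACNA1C-AS2, and the strand setting of the counting is not stated, so their reads cannot be told apart.

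The other L-type gene with a row, CACNA1D, rose from 0.633 ± 0.0650 to 0.926 ± 0.0677 RPKM (SD, n = 4). Of the T-type pores, which open near the resting potential, CACNA1G rose from 0.230 ± 0.0223 to 0.560 ± 0.0240 RPKM (SD, n = 4), a ratio of 2.43. CACNA1I was at 0.131 ± 0.0296 RPKM in control and 0.213 ± 0.0251 RPKM in SB-treated cells (SD, n = 4). The call for CACNA1I, with a limma adjusted p of 0.0271, was lost without control replicate 4 (0.0569) or without SB-treated replicates 2 (0.083) or 4 (0.0604).

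CACNA1H, the third T-type pore, was at 6.19, 7.37, 7.39 and 6.84 RPKM in control and at 6.11, 7.44, 7.19 and 7.32 RPKM in SB-treated cells. Its groups overlapped, with a log2 fold change of 0.01 and a 95% interval from -0.14 to 0.16 (limma adjusted p = 0.888), and the sign turned to -0.04 without control replicate 1. CACNA1H also shares exon sequence with TPSG1 on the other strand. The makeup of the group shifted toward the genes that rose. CACNA1H made up 80.1% ± 1.47 (SD, n = 4) of the summed RPKM of the calcium pore genes in control and 64.5% ± 1.88 in SB-treated cells, and CACNA1C went to 11.9%. The summed RPKM lay between 7.81 and 9.09 in control and between 9.90 and 11.3 in SB-treated cells.

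**Figure D3:**
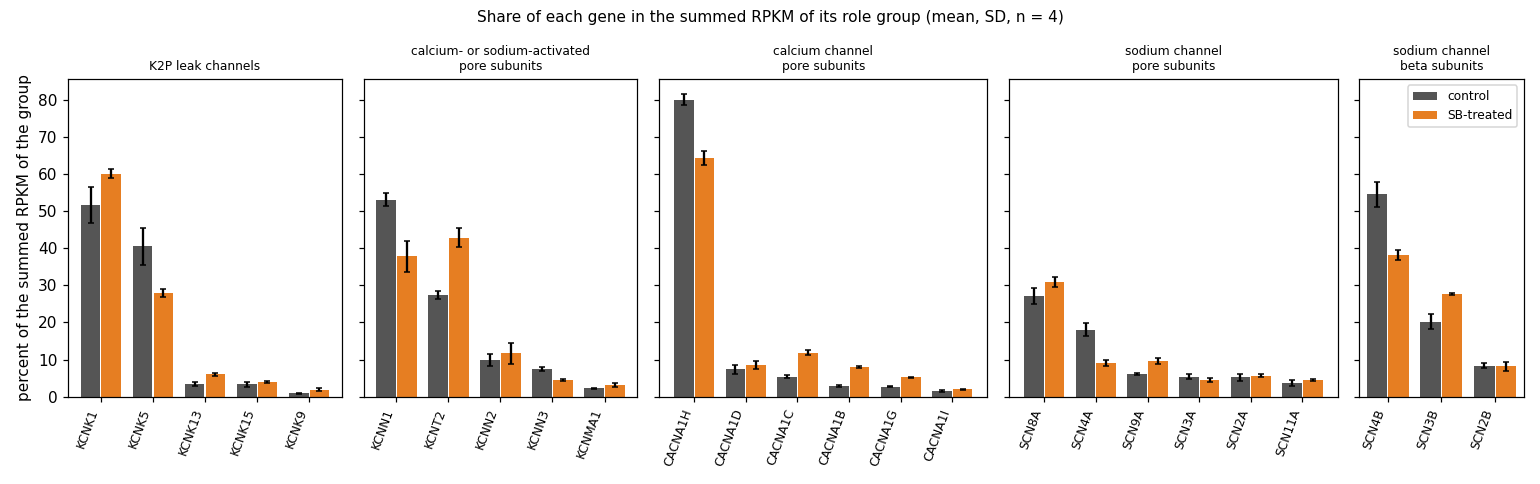
Bars give percents of the summed RPKM of a role group, for the genes reported here (mean of 4 replicates, error bars SD) for control in gray and SB-treated in orange. CACNA1H, KCNN1, SCN4B, KCNK5 and SCN4A took smaller shares in SB-treated cells, and CACNA1C, KCNT2, SCN3B and KCNK1 larger ones.

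The sequence before the start of these genes was read from the RefSeq promoter windows (GRCh38.p14), which run from 250 bases before a start to 50 after and held 50 of the 73 channel genes. CACNG7 and CACNA1G were missing from that table. The stretches of CACNA1B and CACNA1C are shown because their ratios are the highest among the genes with a window. Each gives the 250 bases before the RefSeq start, 5′ to 3′ on the strand of the gene, and capitals mark GC boxes, the letters GGGCGG on either strand, a motif bound by Sp-family factors.
CACNA1B, chr9:137877532-137877781, plus strand: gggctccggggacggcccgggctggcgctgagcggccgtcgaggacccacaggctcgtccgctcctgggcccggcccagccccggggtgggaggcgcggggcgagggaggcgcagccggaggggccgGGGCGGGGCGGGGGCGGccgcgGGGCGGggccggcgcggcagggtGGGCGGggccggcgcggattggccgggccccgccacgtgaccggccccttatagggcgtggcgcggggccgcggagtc
CACNA1C, chr12:2052737-2052986, plus strand: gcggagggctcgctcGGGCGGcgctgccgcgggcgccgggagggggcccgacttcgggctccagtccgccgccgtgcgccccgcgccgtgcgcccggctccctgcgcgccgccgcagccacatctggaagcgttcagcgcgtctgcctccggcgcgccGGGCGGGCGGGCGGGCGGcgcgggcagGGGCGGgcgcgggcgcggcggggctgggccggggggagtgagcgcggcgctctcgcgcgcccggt
With overlapping matches counted, CACNA1B holds 5 GC boxes in 250 bases and CACNA1C 6, and their G and C contents are 85.2% and 85.6%. The CACNA1C window lies inside the gene as GENCODE draws it, since RefSeq places this start further downstream.

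Over whole windows of 300 bases, a GC box was present in 32 of the 50 channel genes (64%), against 68.5% of the 10651 windows of genes in the table and 43.8% of all 27305 windows. It was in 21 of the 30 channel genes that rose, 3 of the 5 that fell and 8 of the 15 that did not pass the test. The TATA box, TATAAA on either strand, was in 6% of the channel windows and 5.75% of those of the table. The left part of the RE1 element bound by the repressor REST, TTCAGCACC on either strand, was in 0 of the 50 channel windows and in 0.263% of those of the table. The median G and C content was 67.2% in the channel windows and 65.3% in those of the table. These are counts of letters in a window and show no binding.

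Calcium channel auxiliary subunits rose in 8 cases and fell in 2 among the 11 with a row, against 33.0% higher and 32.6% lower over all genes. The CACNG group includes partners that carry AMPA-type glutamate receptors to the membrane, and all 4 of its genes with a row rose. CACNG7, one of these receptor partners, was at 0.331, 0.390, 0.382 and 0.323 RPKM in control and at 0.832, 0.954, 0.847 and 0.898 RPKM in SB-treated cells. The ratio of the means was 2.48. All control libraries of CACNG7 were under 1 CPM, so it had a row through the SB-treated libraries and no test is given for it. CACNG4 rose from 0.513 to 0.989 RPKM and CACNG8 from 2.32 to 2.71 RPKM. CACNG6, also with a row through SB-treated libraries, went from 0.524 to 0.808 RPKM with overlapping groups. CACNG6 and CACNG7 are in the counts of 8 and of 4, so these counts describe the genes that have a row. CACNG7, CACNG8 and CACNG6 lie next to each other on chr19, with ratios of 2.48, 1.17 and 1.54.

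The CACNB genes encode the cytoplasmic subunits that bring the calcium pore to the membrane, and they went in both directions. CACNB4, the most abundant auxiliary gene, was at 6.81, 5.26, 5.38 and 5.21 RPKM in control and at 7.06, 6.51, 6.59 and 6.85 RPKM in SB-treated cells. Control replicate 1 lay among the SB-treated values and the other controls lay below them. The log2 fold change was 0.22 (limma adjusted p = 0.0194) with all libraries and 0.30 (1.81e-05) without control replicate 1, while the call was lost without control replicates 2, 3 or 4 or SB-treated replicate 1, with adjusted p-values between 0.0532 and 0.0551. CACNB3 rose from 5.17 to 6.71 RPKM with no overlap. CACNB1, the form of skeletal muscle, fell from 2.83 ± 0.181 to 2.19 ± 0.122 RPKM (SD, n = 4). Its control values were 2.57, 2.95, 2.82 and 2.96 RPKM and its SB-treated values 2.01, 2.23, 2.29 and 2.23 RPKM, with a log2 fold change of -0.26 (SE 0.0456, limma adjusted p = 0.000696). CACNB2 did not pass the test (1.51 and 1.68 RPKM, limma adjusted p = 0.0868), and did so without control replicate 1 (0.00846) or without the library scaling factors (0.00942).

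The CACNA2D genes encode extracellular subunits, and those of CACNA2D1 and CACNA2D2 bind gabapentin-type drugs. CACNA2D1 rose from 4.23 to 5.27 RPKM and CACNA2D3 from 1.82 to 2.79 RPKM, and neither overlapped between groups. CACNA2D2 was at 2.74 ± 0.251 RPKM in control and 2.37 ± 0.165 RPKM in SB-treated cells (SD, n = 4), with a limma adjusted p of 0.0423. Its values overlapped, and the call was lost under 7 of the 14 alternatives, where the adjusted p lay between 0.0823 and 0.302. These were the fit without the library scaling factors and those without control replicates 2, 3 or 4 or SB-treated replicates 1, 2 or 4. The summed RPKM of the auxiliary genes lay between 27.5 and 27.9 in control and between 32.6 and 33.5 in SB-treated cells.

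Sodium channel pore subunits carry the upstroke of the action potential. Of the 7 with a row, 5 rose and SCN4A fell, against 33.0% higher and 32.6% lower over all genes. SCN8A, which neurons use where the action potential starts, was at 1.4, 1.42, 1.31 and 1.26 RPKM in control and at 2.08, 2.16, 2.29 and 2.21 RPKM in SB-treated cells. The groups did not overlap, with a log2 fold change of 0.44 (SE 0.0374, limma adjusted p = 7.68e-06) and a ratio of 1.62.

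SCN9A (chr2:166195185-166376001, minus strand), the pore of pain-sensing neurons, had the highest ratio among the sodium channel pores, 2.25. It was at 0.303, 0.302, 0.293 and 0.318 RPKM in control and at 0.664, 0.755, 0.598 and 0.716 RPKM in SB-treated cells. The SD of the control values was 0.0107 RPKM and all SB-treated values were over them, with a limma adjusted p of 2.18e-05. An exon of the antisense gene SCN1A-AS1 overlaps SCN9A. Its 250 bases before the RefSeq start are shown beside the calcium pores as the third highest ratio among the genes with a window, with GC boxes in capitals, here read on the opposite strand as CCGCCC.
SCN9A, chr2:166375945-166376194, minus strand: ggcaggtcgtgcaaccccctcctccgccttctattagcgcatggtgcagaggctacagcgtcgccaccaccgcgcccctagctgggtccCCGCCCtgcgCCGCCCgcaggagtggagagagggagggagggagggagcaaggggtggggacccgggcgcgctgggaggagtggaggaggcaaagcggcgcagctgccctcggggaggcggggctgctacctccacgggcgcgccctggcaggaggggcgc
It holds 2 GC boxes, fewer than either calcium pore gene, at a G and C content of 74%.

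SCN4A, the pore of skeletal muscle, went the other way. It was at 0.783, 0.875, 0.911 and 1.03 RPKM in control and at 0.603, 0.718, 0.563 and 0.691 RPKM in SB-treated cells. The groups did not overlap, with a ratio of 0.716 and a log2 fold change of -0.21 (SE 0.0492, limma adjusted p = 0.00421). Its share of the summed sodium pore RPKM was 18.0% in control and 9.11% in SB-treated cells. Of the brain forms, SCN2A rose from 0.259 to 0.399 RPKM and SCN3A did not pass the test (0.265 and 0.317 RPKM, limma adjusted p = 0.154). With a pseudocount of 0.1 in place of 1, SCN3A passed it (0.0364). SCN11A, another pore of sensory neurons, rose from 0.187 to 0.317 RPKM, and shares exon sequence with WDR48 on the other strand.

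Sodium channel beta subunits are cell adhesion proteins that change the gating of the pore. Of the 4 with a row, 2 rose and none fell in limma's test, against 33.0% higher and 32.6% lower over all genes. SCN3B rose from 0.719 ± 0.0316 to 1.32 ± 0.0159 RPKM (SD, n = 4). SCN4B, the most abundant beta subunit, was at 1.58, 2.17, 1.95 and 2.12 RPKM in control and at 1.77, 1.87, 1.81 and 1.89 RPKM in SB-treated cells. Control replicate 1 was below all SB-treated values for SCN4B and the other controls were above them. The log2 fold change was -0.06 with an adjusted p of 0.434 in limma, and -0.12 with an adjusted p of 0.00787 without control replicate 1, so this library decided the call. SCN2B did not pass the test (0.302 and 0.391 RPKM, limma adjusted p = 0.0961), except without the library scaling factors (0.0409).

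The pore subunits of voltage-gated potassium channels (Kv), which end the action potential, formed the largest group. Of 20 with a row, out of 40 in GENCODE, 14 rose and 2 fell, against 33.0% higher and 32.6% lower over all genes. The summed RPKM of these 20 lay between 34.5 and 37.9 in control and between 47.0 and 50.8 in SB-treated cells. The 14 include KCNA2 and KCNA6, which had a row through SB-treated libraries alone. The 2 include KCNF1, which had a row through control libraries alone, so these counts describe the genes that have a row. KCNC1 and KCNC4 belong to a family whose fast channels let neurons fire at high rates. KCNC1 was at 1.83, 2.42, 2.40 and 2.28 RPKM in control and at 3.82, 4.14, 4.08 and 3.92 RPKM in SB-treated cells, a log2 fold change of 0.63 (limma adjusted p = 1.55e-05). No value overlapped between its groups. KCNC4 rose from 3.25 to 4.4 RPKM, a smaller ratio of 1.35 against 1.79 for KCNC1.

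KCNA3, the channel known from T lymphocytes, was at 0.580, 0.444, 0.446 and 0.501 RPKM in control and at 1.18, 1.01, 1.05 and 1.13 RPKM in SB-treated cells. The groups were apart, with a ratio of 2.22 (log2 fold change 0.49, SE 0.0431, limma adjusted p = 9.58e-06). KCNA2 and KCNA6 of the same family, with a row through SB-treated libraries alone, went from 0.266 to 0.423 RPKM and from 0.0914 to 0.186 RPKM, while KCNA7 (0.281 and 0.334 RPKM) did not pass the test. KCNH3, of the ether-a-go-go family, was at 1.39, 1.83, 2.06 and 1.57 RPKM in control and at 2.40, 3.01, 2.98 and 3.14 RPKM in SB-treated cells. It did not overlap either (log2 fold change 0.52, SE 0.0845, limma adjusted p = 0.000449), and it shares exon sequence with MCRS1 on the other strand. KCNH2, the potassium channel of the heart that many drugs block, rose from 0.791 to 1.15 RPKM.

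KCNG1, KCNG3, KCNS1, KCNS3 and KCNF1 encode silent subunits, which form no channel alone and change the properties of other Kv channels. KCNG1, the most abundant of the 73 genes, was at 9.85, 9.74, 9.27 and 9.28 RPKM in control and at 12.1, 14.2, 14.3 and 13.7 RPKM in SB-treated cells. All SB-treated values were higher, with a log2 fold change of 0.47 (SE 0.0523, limma adjusted p = 4.19e-05). KCNG3 rose from 1.90 to 2.70 RPKM and KCNS3 from 0.595 to 1.03 RPKM. KCNS1 did not pass the test (0.268 and 0.341 RPKM), except without control replicate 3 (limma adjusted p = 0.0272).

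KCNF1 (chr2:10911934-10914225, plus strand) was the exception among the silent subunits. It was at 0.482, 0.411, 0.587 and 0.438 RPKM in control and at 0.261, 0.264, 0.268 and 0.366 RPKM in SB-treated cells. Its ratio of 0.605 was the lowest of the 73 genes, from 43.2 reads on average in control and 28.0 in SB-treated cells. No SB-treated library was over 1 CPM, so KCNF1 had a row through control libraries and no test is given for it. Its 250 bases before the RefSeq start are shown as the counterpart of the genes that rose. Capitals mark the letters TGACGTCA, the cAMP response element, and no GC box was found in this stretch.
KCNF1, chr2:10911684-10911933, plus strand: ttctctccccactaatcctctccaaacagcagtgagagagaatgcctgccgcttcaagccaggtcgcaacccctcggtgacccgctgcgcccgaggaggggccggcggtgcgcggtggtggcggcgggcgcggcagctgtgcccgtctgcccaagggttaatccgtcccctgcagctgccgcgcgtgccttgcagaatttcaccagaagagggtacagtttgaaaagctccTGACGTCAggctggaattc
KCNF1 was the channel gene with this element in its window, 1 of 50, against 3.15% of the windows of the table and 1.94% of all windows.

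The KCNQ genes carry slow currents that restrain firing in neurons and repolarize the heart. KCNQ5, a neuronal form, did not pass the test (4.38 and 4.55 RPKM), except without the library scaling factors (limma adjusted p = 0.022). KCNQ1, the cardiac form, rose from 0.545 to 0.792 RPKM with overlapping groups and a limma adjusted p of 0.0192, which was 0.0501 without control replicate 2 and 0.0559 without SB-treated replicate 4. It also overlaps the noncoding genes KCNQ1OT1 and KCNQ1-AS1 on the other strand.

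**Figure D4:**
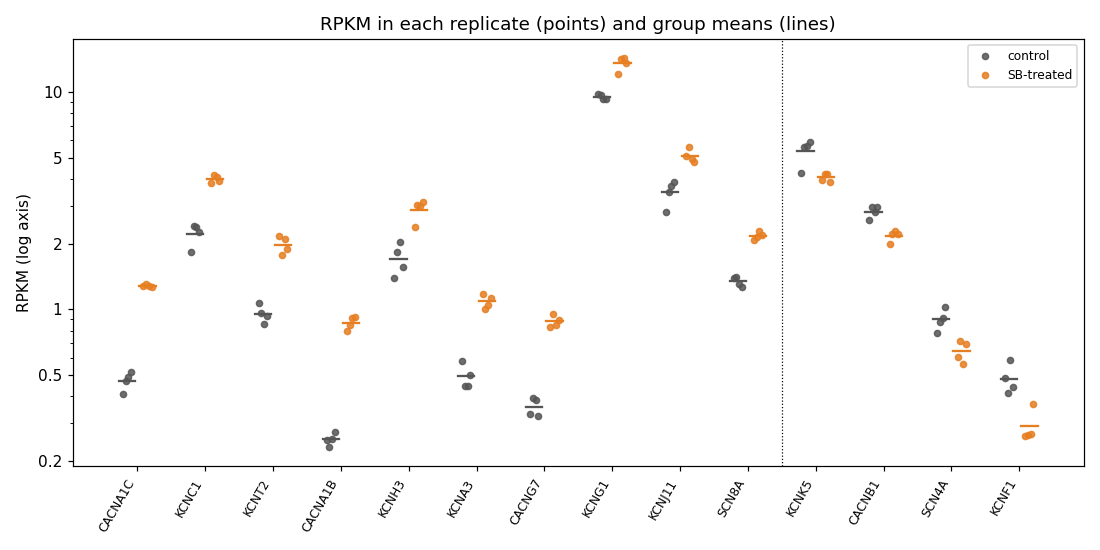
RPKM of each replicate (points, log axis) and group means (lines) are drawn for 10 of the channel genes with the largest rises in limma's log2 fold change and, right of the dotted line, 4 that fell without overlap. Gray is control and orange SB-treated. The 14 genes were chosen for groups without overlap, so the separation of their points follows from that choice. CACNG7 had a row through SB-treated libraries alone and KCNF1 through control libraries alone.

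Inward rectifiers pass potassium more easily into the cell than out of it. Of the 7 with a row, 2 rose and none fell in limma's test. That share of rises is not above the background of 33.0% higher, beside 32.6% lower, over all genes. KCNJ8, a pore of the ATP-sensitive channel in blood vessels, was at 8.65, 8.13, 8.88 and 8.04 RPKM in control and at 9.69, 8.88, 9.76 and 9.99 RPKM in SB-treated cells. The groups touched at 8.88 RPKM without overlapping, and the log2 fold change was 0.17 (SE 0.0461, limma adjusted p = 0.00976). KCNJ11, the pore of the same kind of channel in insulin-secreting cells, was at 2.81, 3.48, 3.70 and 3.86 RPKM in control and at 5.07, 5.58, 4.93 and 4.76 RPKM in SB-treated cells. It was clearly apart, with a ratio of 1.47 and a log2 fold change of 0.45 (SE 0.0754, limma adjusted p = 0.000533). Their regulatory partners ABCC9 and ABCC8 did not pass the test, at 0.739 and 0.816 RPKM and at 2.03 and 1.82 RPKM in control and SB-treated cells.

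KCNJ12, a classical inward rectifier of heart and skeletal muscle, was at 2.47, 3.26, 3.64 and 3.158 RPKM in control and at 2.73, 2.78, 2.55 and 2.61 RPKM in SB-treated cells. Control replicate 1 was below all SB-treated values of KCNJ12 and the other controls were above them. The log2 fold change was -0.17 (limma adjusted p = 0.0866), and -0.25 (0.000509) without control replicate 1. Reads of KCNJ12 may be shared with its near-identical copy KCNJ18, so its level is uncertain. The others, KCNJ4, KCNJ5, KCNJ10 and KCNJ14, were between 0.191 and 1.07 RPKM in control with ratios of 1.02 to 1.21. They did not pass the test with all libraries, and KCNJ14 passed it without control replicate 4 (limma adjusted p = 0.0303). KCNJ10 passed it without control replicate 1, but was over 1 CPM in 4 SB-treated libraries and 1 control library. It had a row through the SB-treated libraries, so this pass is not read as a rise.

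Of the 5 leak channels (K2P), which pass potassium at rest, 3 rose and KCNK5 fell, against 33.0% higher and 32.6% lower over all genes. KCNK1, the most abundant, was at 7.39, 6.97, 6.64 and 6.19 RPKM in control and at 8.26, 8.98, 8.56 and 9.09 RPKM in SB-treated cells, with no overlap and a log2 fold change of 0.32 (SE 0.0523, limma adjusted p = 0.000472). KCNK5, a leak channel sensitive to alkaline pH, was at 4.25, 5.59, 5.65 and 5.87 RPKM in control and at 3.95, 4.20, 4.19 and 3.88 RPKM in SB-treated cells. Control replicate 1 was just over the SB-treated values of KCNK5 and the other controls were far over them. The log2 fold change was -0.32 (SE 0.0784, limma adjusted p = 0.00528) and -0.41 (3.43e-06) without that library. The group so came to lean on KCNK1, whose share of the summed RPKM was 51.8% ± 4.86 (SD, n = 4) in control and 60.2% ± 1.12 in SB-treated cells, while that of KCNK5 was 40.6% ± 4.95 and 28.0% ± 1.16. KCNK13 rose from 0.455 to 0.877 RPKM and KCNK9, with a row through SB-treated libraries alone, from 0.116 to 0.262 RPKM. KCNK15 had 1 of the 3 largest log2 fold changes among genes not called, 0.14 (limma adjusted p = 0.0631), and shares exon sequence with RIMS4 on the other strand. KCNK15 passed the test without control replicate 3 (0.0241), without the library scaling factors (0.0249) and with the replicate block (0.0326).

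Of the 5 potassium pores opened by calcium or sodium, 3 rose and none fell in limma's test. The shares over all genes were 33.0% higher and 32.6% lower. KCNT2, opened by sodium, was at 1.07, 0.962, 0.859 and 0.931 RPKM in control and at 2.18, 1.78, 2.1 and 1.90 RPKM in SB-treated cells. Its lowest SB-treated value was over its highest control value, with a ratio of 2.09 and a log2 fold change of 0.61 (SE 0.0520, limma adjusted p = 7.73e-06). KCNN1, a small-conductance channel opened by calcium and the most abundant of the 5 in control, was at 1.86, 1.87, 1.76 and 1.89 RPKM in control and at 1.52, 1.73, 2.06 and 1.71 RPKM in SB-treated cells. It overlapped, with a log2 fold change of -0.05 and a 95% interval from -0.17 to 0.08, and its sign turned without the library scaling factors. KCNT2 took 27.4% ± 1.18 of the summed RPKM of this group in control and 42.9% ± 2.57 in SB-treated cells, and KCNN1 53.1% ± 1.78 and 37.9% ± 4.24 (SD, n = 4).

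KCNN2, also of small conductance, rose from 0.345 to 0.539 RPKM with overlap (limma adjusted p = 0.0211), a call that was lost without control replicates 2 or 3 or SB-treated replicates 1 or 4 (adjusted p between 0.0538 and 0.0623). KCNN3 was at 0.245, 0.263, 0.260 and 0.261 RPKM in control and at 0.197, 0.217, 0.204 and 0.205 RPKM in SB-treated cells. All its SB-treated values were lower, yet on the log2(RPKM + 1) scale the adjusted p was 0.0919 in limma, against 0.00393 in voom on the reads. It was also 0.0244 without control replicate 1. KCNMA1, the large-conductance channel opened by calcium and voltage, was at 0.0757 ± 0.00236 RPKM in control and 0.144 ± 0.0148 RPKM in SB-treated cells (SD, n = 4) with no overlap. Its call (limma adjusted p = 0.0246) was lost with the replicate block and without control replicates 2 or 4 or SB-treated replicates 1, 2 or 4, where the adjusted p lay between 0.0507 and 0.0713, and voom gave 4.03e-05.

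Of the 8 potassium channel auxiliary subunits, KCNIP3 and KCNMB3 rose, KCNE2 fell, and 5 did not pass the test. That share of rises is not above the background of 33.0% higher, beside 32.6% lower, over all genes. The summed RPKM of these subunits overlapped between control (11.5 to 12.6) and SB-treated cells (12.3 to 12.6). KCNMB4, a subunit of the large-conductance channel and the most abundant of them in control, was at 2.77, 2.66, 2.90 and 2.92 RPKM in control and at 2.67, 2.74, 2.74 and 2.52 RPKM in SB-treated cells. The groups overlapped, with a log2 fold change of -0.06 and a 95% interval from -0.14 to 0.03, and the sign turned without the library scaling factors. KCNIP3, a calcium-binding partner of Kv pores, rose from 1.98 to 2.63 RPKM, and KCNMB3 rose from 0.475 to 0.721 RPKM but shares exon sequence with PIK3CA on the other strand. KCNE2, a small partner of cardiac and epithelial pores, was at 1.64, 1.55, 1.36 and 1.46 RPKM in control and at 1.0, 0.939, 1.29 and 1.45 RPKM in SB-treated cells. SB-treated replicate 4 lay among the controls, and the call (log2 fold change -0.21, limma adjusted p = 0.0305) was lost under 7 of 14 alternatives with adjusted p-values between 0.0512 and 0.102. Among these were voom, with 0.0565, the fit without the scaling factors, and those without control replicates 1, 2 or 4 or SB-treated replicates 1 or 2. KCNIP4 was the remaining gene with a large change that was not called, at 1.01 ± 0.207 RPKM in control and 0.823 ± 0.0604 RPKM in SB-treated cells (SD, n = 4, log2 fold change -0.14, limma adjusted p = 0.104), and it passed the test without control replicate 2 (0.00806).

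Some channel genes lie near each other in the genome. With gaps of at most 500 kb, 18 of the 73 fell into 8 clusters. KCNC4, KCNA2 and KCNA3 on chr1 (chr1:110210314-110674940 in all) rose with ratios of 1.35, 1.59 and 2.22. KCNJ11 and KCNC1 on chr11, CACNA1D and CACNA2D3 on chr3, and the 3 CACNG genes on chr19 also rose. Among these, KCNA2, CACNG6 and CACNG7 had a row through SB-treated libraries. In SCN3A and SCN2A on chr2, SCN2A rose and SCN3A did not pass the test, and in SCN4B with SCN2B on chr11 and KCNK15 with KCNS1 on chr20 neither gene passed it. With 60.3% of all channel genes higher, such clusters are a description of position only. Of the 73 genes, 16 share exon sequence with a named gene on the other strand, for 8 of them a protein-coding gene. On the same strand 3 do, KCNJ14 with the protein-coding gene GRWD1 and CACNG8 and KCNMB3 with another named gene. Besides those named above, the overlaps on the other strand include CACNA1D with CHDH, KCNAB2 with NPHP4, KCNIP4 with PACRGL, and CACNA2D3 and KCNMA1 with their antisense genes.

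Genes that work beside the channels were read from a list of 64 pumps, exchangers, release channels, regulators and related channels. Of the 47 with a row, 17 rose, 11 fell and 19 did not pass the test, with a median ratio of 1.03, against 33.0% higher and 32.6% lower over all genes. Without control replicate 1, 18 rose and 17 fell, against 37.6% and 37.9%. Among the genes that rose, NALCN was over 1 CPM in SB-treated libraries alone, so it had to be higher to have a row. The pumps that keep up the sodium, potassium and calcium gradients were mostly lower or not called: 6 of 11 fell and ATP2B4 rose. ATP1B2, a beta subunit of the sodium pump, fell from 3.55 ± 0.585 to 1.98 ± 0.134 RPKM (SD, n = 4), a ratio of 0.559. The values of ATP1B2 did not overlap, and its limma adjusted p was 0.000167. The more abundant ATP1B3 fell from 113 to 88.6 RPKM.

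Calcium handling inside the cell was divided. Of the calmodulin genes, which encode a calcium sensor bound by many of these channels, CALM3 fell from 211 to 165 RPKM, and CALM2 did not pass the test (53.2 and 49.3 RPKM, limma adjusted p = 0.0877). The calcium release channel RYR2 was at 0.903, 0.905, 0.908 and 0.917 RPKM in control and at 1.92, 1.68, 1.78 and 1.75 RPKM in SB-treated cells. It rose by 0.54 on the log2 scale (SE 0.0351, limma adjusted p = 1.66e-06), while the release channel ITPR1 fell from 2.14 to 1.62 RPKM. Among the 6 release channel genes 3 rose and 1 fell, against 33.0% higher and 32.6% lower over all genes. Of the genes for store-operated entry, ORAI2 rose from 2.66 to 4.39 RPKM and ORAI3 from 2.46 to 3.65 RPKM, and ORAI1, STIM1 and STIM2 did not pass the test. Of the sodium-calcium exchangers, SLC8B1 of mitochondria rose from 5.98 to 8.88 RPKM and SLC8A1 of the cell membrane fell from 3.19 to 2.36 RPKM.

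Related cation channels rose in 4 of 8 cases, NALCN among them, against 33.0% of all genes. TPCN1, a channel of endosomes and lysosomes, rose from 4.19 to 6.58 RPKM, a log2 fold change of 0.55 (limma adjusted p = 2.91e-06). HCN3 and HCN4, pores of the pacemaker current, rose from 1.07 to 1.87 RPKM and from 0.5 to 0.997 RPKM. The sodium leak channel NALCN, with a row through SB-treated libraries alone, went from 0.0520 to 0.134 RPKM. CACHD1, related to the CACNA2D subunits, fell from 18.5 to 13.6 RPKM. REST, which represses many channel genes outside the nervous system, was at 13.5, 12.2, 12.2 and 11.9 RPKM in control and at 17.5, 16.4, 16.1 and 16.4 RPKM in SB-treated cells. It rose as well, with a log2 fold change of 0.39 (SE 0.0461, limma adjusted p = 5.91e-05), and its cofactor RCOR1 did not pass the test (15.9 and 15.4 RPKM).

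**Figure D5:**
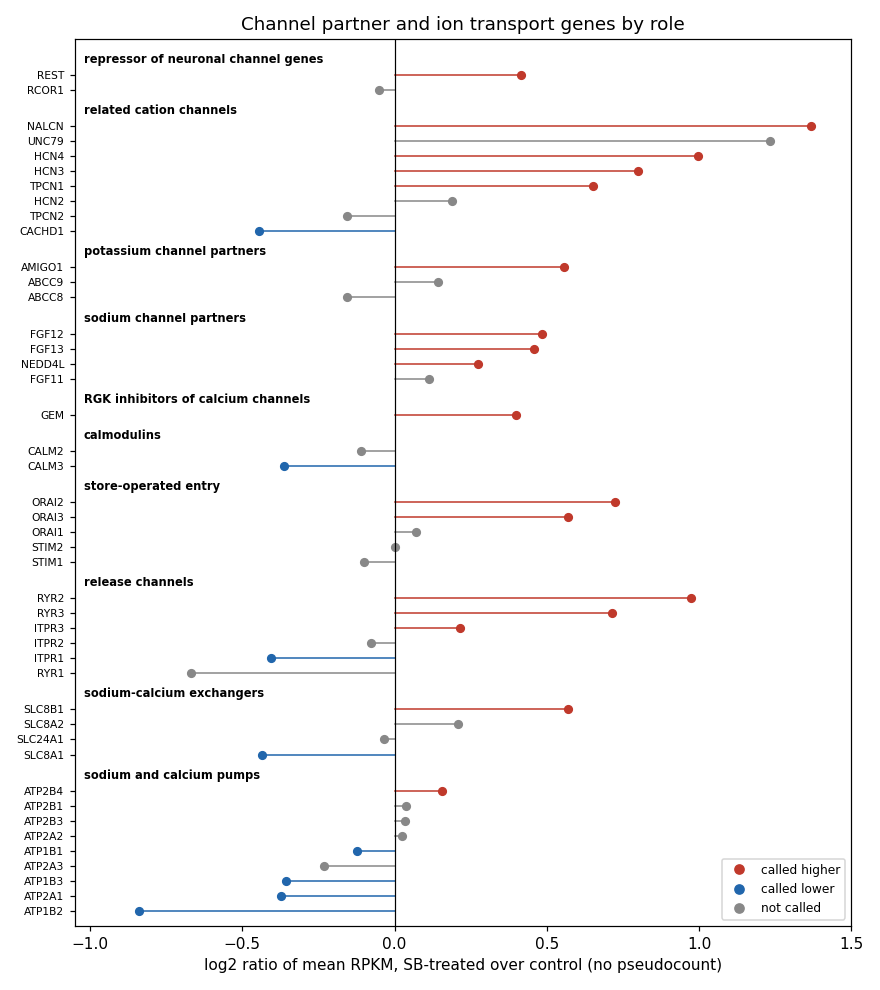
The log2 ratio of mean RPKM, SB-treated over control (4 replicates each), is drawn for 44 of the partner and ion transport genes, with red points for genes that rose, blue for genes that fell and gray for the others. The pump subunit ATP1B2 is the lowest point.

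Markers of other cell types moved in both directions beside the channel genes. Of the 10 neuron markers with a row, 4 rose and 3 fell, against 33.0% higher and 32.6% lower over all genes. INA and TUBB3 rose from 5.29 to 9.10 RPKM and from 2.95 to 4.30 RPKM. The neurofilament genes NEFM and NEFL fell from 38.0 to 17.7 RPKM and from 42.2 to 27.1 RPKM, and they made up most of the summed level. Of the muscle markers, TNNI3 fell from 11.5 to 8.31 RPKM and ACTN2 rose from 2.91 to 3.34 RPKM. DES was at 0.453 RPKM in control and 0.268 RPKM in SB-treated cells. No SB-treated library of DES was over 1 CPM, so it had to be lower there to have a row. The 3 hepatocyte markers with a row were called higher, among them TF and FOXA1. Their sums were 1.57 to 1.78 RPKM in control and 2.35 to 2.55 RPKM in SB-treated cells. TF was over 1 CPM in SB-treated libraries alone, so it had to be higher to have a row. All 3 lie in the lowest quartile of levels, where 42.8% of all genes were called higher. The part of the markers in the channel results was not tested.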

How the data were processed

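RNA-seq of 8 samples, 4 control and 4 SB-treated, was used. Per the paper and the submitters' processing notes, the authors mapped reads to hg38 with TopHat2 2.1.0, counted them with featureCounts 1.5.0, kept genes over 1 CPM in at least 2 samples, scaled libraries by TMM with edgeR 3.16.5, and deposited RPKM values per gene and library. The deposited log2 fold change, log2 CPM, p-value and FDR of each gene are the authors' own comparison and were not used. Columns of per-sample values left unused: 0. Samples were grouped by title.

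RPKM values were tested on the log2(RPKM + 1) scale with limma 3.58.1 (lmFit, eBayes) in R 4.3.3, adjusted by Benjamini-Hochberg over all 14526 genes, with no further filter. Whole reads were recovered from the RPKM steps for 100% of the genes within 0.02 reads, the library size coming from 149 genes whose span in RefSeq is the length used for counting, with scaling factors of 0.957 to 0.969 in control and 1.03 to 1.04 in SB-treated libraries. The reads of a gene are the smallest whole numbers that give its RPKM steps, and by them 3 genes of the table, KCNJ5 among them, are under the authors' minimum. Both steps were tested on simulated data. Positions and exon overlaps are from GENCODE release 44, and promoter windows from RefSeq (GRCh38.p14), read with Python 3.11.15. Library depth limits the precision of genes with few reads.

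The channel genes, the lists and the tests were chosen with earlier results of these data known. Genes named with full values were the 12 largest rises and 12 largest falls (5 qualified) among called channel genes without overlap, the most abundant of each role, the 3 largest changes not called, the 5 largest rises and falls of the partner list and the markers. Some genes that meet this rule are not reported here. SCN9A, KCNN3, KCNE2 and others were named after their values were seen. The alternatives were leaving out each replicate, voom, an intensity trend in eBayes, a pseudocount of 0.1, no TMM factors, a minimum of 10 reads per sample, and a block for the replicate number.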

Additional observations from a re-analysis of the deposited data

Results flagged for a closer look

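In 64 groups of 4 replicates, a library was looked for whose gap to its nearest neighbor took up a larger part of the range of its group than Dixon's 95% critical value. Chance gives about 3.2 such groups, and 4 were found. In KCNK5, control replicate 1 was the lowest control, with 0.842 of the range. In CACNB4, control replicate 1 was the highest control, with 0.876. SB-treated replicate 4 was the highest SB-treated value of KCNF1, with 0.931, and SB-treated replicate 1 the lowest of CACNA1H, with 0.8294.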

How the results depend on the processing

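Over the 14 alternatives that were run, the channel genes that rose numbered between 40 and 50 and those that fell between 5 and 9. Leaving out each replicate gave 40 to 46 higher and 5 to 9 lower. Of the named genes' values under the alternatives, 516 were the same in direction and in call, 6 changed sign, 6 passed the test newly and 4 no longer passed it. Among role groups, the calcium- or sodium-activated pores had 1 gene lower in place of 0 with the pseudocount of 0.1, with the intensity trend and with voom. Without TMM factors the potassium channel auxiliary subunits had 4 higher in place of 2 and 0 lower in place of 1 (also 0 with voom), and the calcium channel auxiliary subunits 1 lower in place of 2. Without TMM factors the log2 fold change turned to 0.01819 for KCNN1, 0.02159 for KCNMB4 and 0.01188 for SCN4B. Leaving out each replicate moved the partner genes that were lower between 9 and 17, the calcium- or sodium-activated pores that were higher between 1 and 3 and lower between 0 and 1, the inward rectifiers and the sodium channel beta subunits that were lower between 0 and 1, the potassium channel auxiliary subunits that were lower between 0 and 1 and the calcium channel auxiliary subunits that were lower between 1 and 2. CACNA1H ranged from -0.03518 to 0.06821 when each replicate was left out, and was below 0 without control replicate 1, SB-treated replicate 2 or SB-treated replicate 4. The cause was not tested. The replicate number as a block left 45 channel genes higher and 7 lower, with KCNMA1 lost and KCNIP2 and KCNK15 gained, 16 partner genes higher and 11 lower, and 4885 genes of the table higher and 4894 lower. Deviations from the group means correlated by 0.38, 0.33, 0.17 and -0.16 for the pairs with numbers 1 to 4, on average 0.18 against -0.05 for pairs with unlike numbers. Since the pair with number 4 was not over 0.1, the numbers were not taken to pair the samples. The planned edgeR quasi-likelihood and DESeq2 tests were not run, since the deposited unit is RPKM. At least 10 reads in every sample changed no call of a channel gene.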
